A study of Danio rerio with 28 samples.

Results

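The genes gsc, lhx1a and frzb are markers of the dorsal organizer, the region of the early gastrula that patterns the embryo around it. They were followed in whole zebrafish embryos from fertilization to early gastrulation, and they are 3 of the 33737 genes listed in every count file. Their rows were found by matching the Ensembl identifiers to symbols without regard to case, which gave ENSDARG00000059073 for gsc, ENSDARG00000014018 for lhx1a and ENSDARG00000018383 for frzb.

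In the zebrafish the organizer, called the shield, forms on the side where maternal beta-catenin enters nuclei of the blastula, and Nodal signals from the margin add to it. The gene gsc encodes Goosecoid, a homeodomain repressor and an early organizer marker. The gene lhx1a encodes a LIM-homeodomain factor, whose relative Lim1 is known from Xenopus and mouse as an activator of organizer genes. The gene frzb encodes a secreted Frizzled-related protein, known from Xenopus as an antagonist that binds Wnt ligands outside the cell. Until the embryo starts its own transcription in the blastula, its mRNA comes from the egg.

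All embryos were of the AB strain, and the samples fall into 14 groups of 2 libraries. The 10 groups sequenced after poly(A) selection were wild type (WT) at 0, 2, 3, 4 and 6 hours post fertilization (hpf), embryos given a morpholino against ybx1 at 3, 4 and 6 hpf, and embryos given a morpholino against pabpc1a at 4 and 6 hpf. A morpholino (MO) is an antisense oligomer that blocks translation or splicing, ybx1 encodes an RNA-binding Y-box protein, and pabpc1a encodes a cytoplasmic poly(A)-binding protein. The 4 groups sequenced after depletion of ribosomal RNA were WT at 4 hpf and embryos injected at the 1-cell stage with 0.2 ng of alpha-amanitin, an inhibitor of RNA polymerase II, at 2, 4 and 6 hpf. Libraries whose titles give only the word MO were taken as ybx1 morphants because the study's design text names that morpholino. The WT embryos were not described as injected and no control morpholino was named, so injection and knockdown cannot be told apart. Each library holds whole embryos of mixed tissue, and the labels call only the amanitin pairs biological replicates. For the other pairs the p-values measure only the spread between libraries of a group, and that spread may be technical. It was estimated over all groups of a kit together, not from the compared pairs alone.

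The poly(A) libraries held 48204100 to 100000375 counts and the rRNA-depleted libraries 39882963 to 66381933. The most counted gene took 22.22 to 46.09% of the counts of a poly(A) library and 0.61 to 2.0% of an rRNA-depleted library. Because a morpholino can leave its target mRNA in place, the targeted mRNAs do not check the labels: ybx1 stood at 445 ± 10.4 CPM (SD, n = 2; CPM, edgeR's count unit, is a gene's share of the scaled library) in ybx1 morphants and 605 ± 220 in WT at 4 hpf, and pabpc1a stood at 497 ± 18.4 in pabpc1a morphants and 745 ± 167 in WT. How far the libraries of a pair differed depended on the measure. By chi-square per degree of freedom the pabpc1a MO pair at 6 hpf differed most, at 878, against 152 for the WT poly(A) pair at 4 hpf. By the number of genes at least 2-fold apart (after adding 1 CPM) the WT poly(A) pair at 4 hpf stood apart. That number was 1531 in this WT pair and 12 to 506 in the remaining poly(A) pairs. Replicate 1 of this pair held more mRNA of 4 markers of the enveloping layer, an epithelium that covers the blastula (krt4, krt8, krt18a.1 and cldne), with a summed level of 1202 CPM against 273 in replicate 2.

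**Figure D1:**
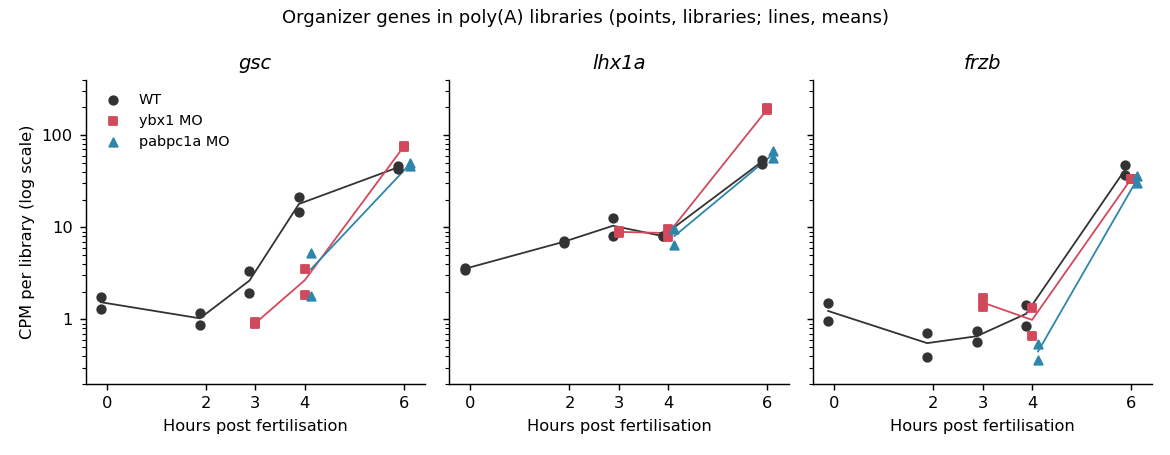
Level of gsc, lhx1a and frzb in each poly(A) library (y axis, CPM on a log scale) against hours post fertilization (x axis), with 1 point per library for WT, ybx1 MO and pabpc1a MO, lines through the group means and points shifted slightly sideways to show them apart. At 4 hpf the WT libraries of gsc (21.1 and 14.8 CPM) lie above all knockdown libraries (1.79 to 5.21 CPM), and at 6 hpf the ybx1 MO libraries of lhx1a (195 and 189 CPM) lie above the WT libraries (49.1 and 53.4 CPM).

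In WT embryos gsc mRNA was scarce until 3 hpf, rose 6.79-fold by 4 hpf and rose 2.50-fold more by 6 hpf. Its level was 1.76 and 1.31 CPM in the 2 libraries at 0 hpf, 0.867 and 1.19 at 2 hpf and 1.95 and 3.33 at 3 hpf. It then stood at 21.1 and 14.8 CPM at 4 hpf and at 43.4 and 46.1 CPM at 6 hpf. The groups at 3, 4 and 6 hpf did not overlap, and the mean at 4 hpf was 40.0% of that at 6 hpf. From 3 to 4 hpf the log2 fold change was 2.76 ± 0.43 (SE; edgeR quasi-likelihood test, Benjamini-Hochberg adjusted p = 0.000543), where 27.5% of all genes tested passed the threshold of 0.05 in either direction. From 4 to 6 hpf it was 1.32 ± 0.40 (edgeR, adjusted p = 0.0115), where 59.7% passed. The difference from 0 to 2 hpf did not pass (log2 -0.61 ± 0.46, edgeR adjusted p = 0.366, and 0.13 with library totals as the scale), against 34.3% of all genes. That from 2 to 3 hpf did not pass either (1.37 ± 0.44, edgeR adjusted p = 0.103), against 4.59% of all genes. Some of the other settings did call a rise from 2 to 3 hpf, and both libraries at 3 hpf lay above both at 2 hpf. In a fit of the 3 and 4 hpf libraries alone no gene passed, 5035 had an unadjusted p under 0.05, and gsc had a log2 fold change of 2.78 with an adjusted p of 0.0655. The rise from 4 to 6 hpf did not pass without replicate 2 of WT at 4 hpf (adjusted p = 0.109) or with library totals as the scale (log2 0.72, edgeR adjusted p = 0.148).

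At 4 hpf gsc was 6.75-fold lower in ybx1 morphants and 5.11-fold lower in pabpc1a morphants than in WT. The ybx1 morphant libraries held 1.82 and 3.53 CPM and the pabpc1a morphant libraries 1.79 and 5.21 CPM, beside 21.1 and 14.8 CPM in the WT libraries that both comparisons share. All 4 knockdown libraries lay below both WT libraries, and the means were 14.9% and 19.6% of WT. The log2 fold change was -2.75 ± 0.43 for the ybx1 morpholino (edgeR, adjusted p = 0.00045), where 32.2% of genes passed in either direction, and it passed under every alternative run. For the pabpc1a morpholino it was -2.35 ± 0.42 (edgeR, adjusted p = 0.000931), where 34.3% passed. That call held without each single library, but in a fit of these 4 libraries alone no gene passed, 5949 had an unadjusted p under 0.05, and gsc had an adjusted p of 0.0767. In pools of whole embryos, fewer cells of a type and less RNA per cell cannot be told apart.

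Markers of developmental progress moved with these gsc values. The 4 enveloping layer markers, all detected, summed to 25.6 and 47.2 CPM in ybx1 morphants and 4.02 and 14.5 CPM in pabpc1a morphants at 4 hpf, against 1202 and 273 in WT. Of 4 listed zygotic genes, the 3 found (klf17, tbx16 and sox19a) summed to 156 and 207 CPM in ybx1 morphants and 44.5 and 128 CPM in pabpc1a morphants, against 632 and 340 in WT. The 4 egg mRNAs mos, zar1, buc and dazl summed to 579 and 559 CPM and to 689 and 572 CPM in the knockdowns, against 215 and 350 in WT. In WT at 3 hpf the enveloping layer sum was 7.03 and 13.9 CPM, the zygotic sum 50.1 and 103 CPM and the egg sum 616 and 566 CPM. Their part in the gsc result was not tested. Set against WT at 3 hpf, gsc at 4 hpf differed by a log2 of 0.01 ± 0.42 in ybx1 morphants (edgeR, adjusted p = 1; 14.0% of genes passed) and 0.41 ± 0.42 in pabpc1a morphants (adjusted p = 0.645; 5.23% passed).

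At 3 hpf gsc was 2.89-fold lower in ybx1 morphants, at 0.891 and 0.932 CPM against 1.95 and 3.33 CPM in WT. The libraries did not overlap. The log2 fold change was -1.53 ± 0.44 (edgeR, adjusted p = 0.0339), where 14.8% of genes passed. Against WT at 2 hpf, 14.6% of all genes passed and the log2 difference of gsc was -0.16 ± 0.46 (edgeR, adjusted p = 0.895). In ybx1 morphants at 3 hpf the zygotic sum was 2.104 and 1.743 CPM, the egg sum 817 and 757 CPM and the enveloping layer sum 4.65 and 3.64 CPM, and their part in the result was not tested. The call at 3 hpf passed in 1 of the 4 fits that left out a library, and not without a filter on low counts (adjusted p = 0.0795).

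By 6 hpf the knockdown libraries no longer held less gsc than WT. The ybx1 morphant libraries stood at 76.7 and 74.3 CPM, above both WT libraries (43.4 and 46.1 CPM), and the pabpc1a morphant libraries at 46.3 and 50.3 CPM. Neither difference passed the test: the log2 difference was 0.75 ± 0.40 for ybx1 (edgeR, adjusted p = 0.178), where 27.5% of genes passed, and 0.11 ± 0.39 for pabpc1a (adjusted p = 0.906), where 9.16% passed. In a fit of the ybx1 MO and WT libraries at 6 hpf alone, the ybx1 difference passed (log2 0.76, edgeR adjusted p = 0.00634). The enveloping layer sum was by then 8085 and 8120 CPM in ybx1 morphants, 7170 and 6030 in pabpc1a morphants and 7838 and 6520 in WT.

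The rise of gsc from 4 to 6 hpf was 28.4-fold in ybx1 morphants (log2 4.83 ± 0.47, edgeR adjusted p = 4.92e-07) and 13.8-fold in pabpc1a morphants (3.79 ± 0.44, adjusted p = 3.65e-06). In these comparisons 71.6% and 72.5% of all genes passed. The knockdown difference itself changed between 4 and 6 hpf, by a log2 of 3.51 ± 0.58 for ybx1 (edgeR interaction test, adjusted p = 0.000843; 26.4% of genes passed) and by 2.47 ± 0.57 for pabpc1a (adjusted p = 0.00844; 22.8% passed). Leaving out single libraries gave 3.09 to 4.05 for ybx1 and 1.89 to 3.44 for pabpc1a. Under another processing setting the pabpc1a change did not pass (edgeR, adjusted p = 0.0536). The 2 morphants did not differ from each other in gsc by the test, with a log2 difference of -0.40 ± 0.42 at 4 hpf (edgeR, adjusted p = 0.565; 16.8% of genes passed) and 0.64 ± 0.40 at 6 hpf (adjusted p = 0.254; 27.8% passed). At 6 hpf both ybx1 morphant libraries lay above both pabpc1a morphant libraries, and under another processing setting that difference passed. From 3 to 4 hpf the gsc log2 difference in ybx1 morphants was 1.54 ± 0.44 (edgeR, adjusted p = 0.0505; 7.76% passed), and the change of the knockdown difference between these hours was -1.22 ± 0.60 (adjusted p = 0.342; 2.05% passed).

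**Figure D2:**
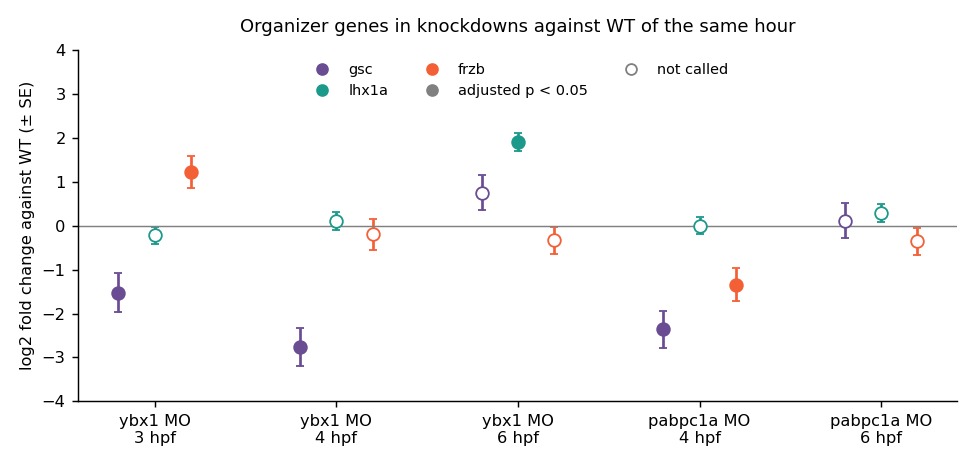
Log2 fold change of each knockdown against WT at the same hour for gsc, lhx1a and frzb (y axis), by knockdown and hour (x axis). Bars show the standard error derived from edgeR's F statistic, and filled points an adjusted p under 0.05. For gsc both knockdowns are negative at 4 hpf (-2.75 and -2.35) and near or above 0 at 6 hpf (0.75 and 0.11), while lhx1a departs from 0 in the ybx1 knockdown at 6 hpf (1.91).

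The mRNA of lhx1a was present from fertilization on and rose 6.37-fold from 4 to 6 hpf. WT at 2 and 4 hpf were not compared with each other by a test. In WT it stood at 3.65 and 3.43 CPM at 0 hpf, 7.09 and 6.82 CPM at 2 hpf, 12.7 and 8.06 CPM at 3 hpf, 8.004 and 8.072 CPM at 4 hpf and 49.1 and 53.4 CPM at 6 hpf. The libraries at 0 hpf lay below all later ones and those at 6 hpf above all earlier ones. The ranges at 3 and 4 hpf overlapped, and both lay above the libraries at 2 hpf. From 0 to 2 hpf, before the embryo's own transcription, it rose 1.96-fold in poly(A) RNA (log2 0.97 ± 0.21, edgeR adjusted p = 0.0015). A poly(A) library cannot tell more mRNA from longer tails on the same mRNA. The differences from 2 to 3 hpf (log2 0.58 ± 0.20, edgeR adjusted p = 0.12) and from 3 to 4 hpf (-0.37 ± 0.20, adjusted p = 0.188) did not pass. The rise from 4 to 6 hpf was a log2 of 2.67 ± 0.21 (edgeR, adjusted p = 2.02e-08).

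Up to 4 hpf the knockdowns did not differ from WT in lhx1a by the test. The ybx1 morphant libraries held 8.67 and 9.18 CPM at 3 hpf and 9.496 and 7.807 CPM at 4 hpf, and the pabpc1a morphant libraries 6.36 and 9.70 CPM at 4 hpf. Each of these groups overlapped with WT at its hour or lay within its range. At 4 hpf, where gsc was lower in both knockdowns, the log2 difference of lhx1a was 0.11 ± 0.20 for ybx1 (edgeR, adjusted p = 0.716) and 0.00 ± 0.20 for pabpc1a (adjusted p = 1), and at 3 hpf it was -0.22 ± 0.20 for ybx1 (adjusted p = 0.503). The 2 morphants differed from each other by a log2 of 0.11 ± 0.20 at 4 hpf (edgeR, adjusted p = 0.77). Set against WT of the hour before, the log2 difference was 0.36 ± 0.20 in ybx1 morphants at 3 hpf (edgeR, adjusted p = 0.257), -0.26 ± 0.20 in ybx1 morphants at 4 hpf (adjusted p = 0.422) and -0.37 ± 0.20 in pabpc1a morphants at 4 hpf (adjusted p = 0.325). From 3 to 4 hpf it was -0.04 ± 0.20 in ybx1 morphants (edgeR, adjusted p = 0.966), and the knockdown difference changed by 0.33 ± 0.28 (adjusted p = 0.622).

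At 6 hpf lhx1a was 3.75-fold higher in ybx1 morphants than in WT. The morphant libraries held 195 and 189 CPM against 49.1 and 53.4 CPM in WT, and the pabpc1a morphant libraries held 57.1 and 68.0 CPM. The ybx1 morphant libraries lay above all others of the series. The log2 fold change was 1.91 ± 0.20 (edgeR, adjusted p = 7.34e-06), and every fit that left out a library passed. For pabpc1a the difference did not pass (log2 0.29 ± 0.20, edgeR adjusted p = 0.404). The 2 knockdowns, compared with each other at 6 hpf, differed 3.07-fold (log2 1.62 ± 0.20, edgeR adjusted p = 2.08e-05). From 4 to 6 hpf lhx1a rose 22.2-fold in ybx1 morphants (edgeR, adjusted p = 7.18e-11) and 7.79-fold in pabpc1a morphants (adjusted p = 3.41e-09). The knockdown difference of ybx1 changed by a log2 of 1.80 ± 0.28 between 4 and 6 hpf (edgeR interaction test, adjusted p = 0.000319; 26.4% of genes passed). For pabpc1a the change of 0.29 ± 0.28 did not pass (edgeR interaction test, adjusted p = 0.492; 22.8% passed).

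The mRNA of frzb was at trace level through 4 hpf and rose 36.9-fold from 4 to 6 hpf. In WT its level was 1.51 and 0.964 CPM at 0 hpf, 0.719 and 0.387 CPM at 2 hpf, 0.562 and 0.752 CPM at 3 hpf, 1.45 and 0.853 CPM at 4 hpf and 36.8 and 47.8 CPM at 6 hpf. The libraries at 6 hpf lay above all others, and the groups at 0 and 4 hpf overlapped. The rise from 4 to 6 hpf was a log2 of 5.21 ± 0.38 (edgeR, adjusted p = 1.19e-08). From 0 to 2 hpf frzb was lower, with a log2 fold change of -1.15 ± 0.37 (edgeR, adjusted p = 0.0248), a call held in 2 of the 4 fits without a library and lost when library totals set the scale (adjusted p = 0.42). The differences from 2 to 3 hpf (log2 0.21 ± 0.38, edgeR adjusted p = 0.844) and from 3 to 4 hpf (0.80 ± 0.36, adjusted p = 0.117) did not pass.

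At 6 hpf frzb was not called different in either knockdown. The ybx1 morphant libraries both held 33.5 CPM and the pabpc1a morphant libraries 35.6 and 30.3 CPM, all below the WT libraries at 36.8 and 47.8 CPM. The log2 difference was -0.34 ± 0.31 for ybx1 (edgeR, adjusted p = 0.462) and -0.36 ± 0.31 for pabpc1a (adjusted p = 0.53). The rise from 4 to 6 hpf was 33.4-fold in ybx1 morphants (edgeR, adjusted p = 5.9e-09) and 72.9-fold in pabpc1a morphants (adjusted p = 1.76e-09). The 2 morphants differed from each other by a log2 of 0.02 ± 0.31 at 6 hpf (edgeR, adjusted p = 0.971). The change of the knockdown difference between these hours did not pass for ybx1 (-0.14 ± 0.47, edgeR adjusted p = 0.856) or pabpc1a (0.98 ± 0.49, adjusted p = 0.157).

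In the poly(A) libraries, calls on frzb before 6 hpf rest on levels below 2 CPM. At 3 hpf it was 2.32-fold higher in ybx1 morphants, at 1.70 and 1.35 CPM against 0.562 and 0.752 CPM in WT, and the libraries did not overlap. The log2 fold change was 1.22 ± 0.36 (edgeR, adjusted p = 0.0319), and no fit that left out a library passed. Against WT at 2 hpf (0.719 and 0.387 CPM) it was higher by a log2 of 1.43 ± 0.36 (edgeR, adjusted p = 0.0136), a call held in 2 of the 4 fits without a library. At 4 hpf the ybx1 morphant libraries held 1.32 and 0.660 CPM, with a log2 difference from WT of -0.19 ± 0.35 (edgeR, adjusted p = 0.71). The pabpc1a morphant libraries held 0.362 and 0.536 CPM at 4 hpf, below both WT libraries. That 2.54-fold lower level (log2 -1.34 ± 0.37, edgeR adjusted p = 0.0115) held in 2 of the 4 fits without a library and not in a fit of these groups alone (adjusted p = 0.164). It was lost without replicate 1 of WT (edgeR, adjusted p = 0.136). Between the morphants at 4 hpf frzb was higher under the ybx1 morpholino, without overlap (log2 1.15 ± 0.38, edgeR adjusted p = 0.0461), and that call passed in 1 of the 4 fits without a library (adjusted p up to 0.48). Set against WT at 3 hpf, frzb at 4 hpf differed by a log2 of 0.61 ± 0.37 in ybx1 morphants (edgeR, adjusted p = 0.299) and -0.54 ± 0.39 in pabpc1a morphants (adjusted p = 0.482). From 3 to 4 hpf the log2 difference in ybx1 morphants was -0.61 ± 0.35 (edgeR, adjusted p = 0.383), and the knockdown difference changed by -1.41 ± 0.50 (adjusted p = 0.169).

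Embryos injected with alpha-amanitin were compared with WT and with each other over time. The 3 zygotic genes were higher under amanitin at 4 than at 2 hpf by the test, where 15.6% of all genes were higher. Their sum went from 0.358 and 0.593 CPM to 4.98 and 4.96 CPM, against 557 and 552 CPM in WT at 4 hpf. Near 0 at 2 hpf, they could hardly fall, so this count is a description. At 4 hpf gsc was 12.9-fold higher in WT than in amanitin embryos, at 29.6 and 31.6 CPM against 2.73 and 2.02 CPM, and the libraries did not overlap. The log2 fold change was 3.69 ± 0.13 (edgeR, adjusted p = 2.3e-16), in a comparison where 68.9% of all genes passed in either direction. The amanitin libraries at 4 hpf stood near those at 2 hpf (2.73 and 2.48 CPM), with a log2 difference of -0.14 ± 0.15 (edgeR, adjusted p = 0.523; 32.3% of genes passed). By 6 hpf gsc had fallen to 0.418 and 0.424 CPM under amanitin, 5.60-fold below 4 hpf (log2 -2.49 ± 0.24, edgeR adjusted p = 4.01e-09; 67.7% of genes passed). From 2 to 6 hpf, where 70.0% of genes passed, it fell 6.16-fold.

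For lhx1a the WT and amanitin libraries at 4 hpf were close, at 20.2 and 19.4 CPM against 14.6 and 17.6 CPM. The WT libraries were higher in both cases, by 1.23-fold (log2 0.30 ± 0.09, edgeR adjusted p = 0.0054). That call was lost when library totals set the scale (log2 0.20, adjusted p = 0.0538) and without replicate 1 of amanitin at 4 hpf (adjusted p = 0.205). The amanitin libraries held 15.96 and 16.79 CPM at 2 hpf and 6.87 and 6.88 CPM at 6 hpf, so the level did not differ from 2 to 4 hpf by the test (log2 -0.02 ± 0.09, edgeR adjusted p = 0.88) and then fell 2.34-fold (log2 -1.23 ± 0.10, adjusted p = 3.62e-10). From 2 to 6 hpf its log2 fold change was -1.25 ± 0.10 (edgeR, adjusted p = 2.34e-10).

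For frzb the direction was the opposite at 4 hpf, with less in WT than under amanitin. The WT libraries held 0.889 and 0.929 CPM and the amanitin libraries 2.43 and 2.48 CPM, without overlap. WT was 2.70-fold lower (log2 -1.43 ± 0.29, edgeR adjusted p = 0.000154). Under amanitin frzb stood at 1.47 and 2.04 CPM at 2 hpf (log2 difference from 2 to 4 hpf 0.48 ± 0.26, edgeR adjusted p = 0.167) and at 0.314 and 0.723 CPM at 6 hpf, a 4.69-fold fall from 4 hpf (log2 -2.23 ± 0.32, adjusted p = 2.31e-06). From 2 to 6 hpf the log2 fold change was -1.75 ± 0.33 (edgeR, adjusted p = 6.99e-05). All values are relative to the scaled size of their library. The spike-ins added by the authors were not used here, so a change in total mRNA per embryo was not measured.

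**Figure D3:**
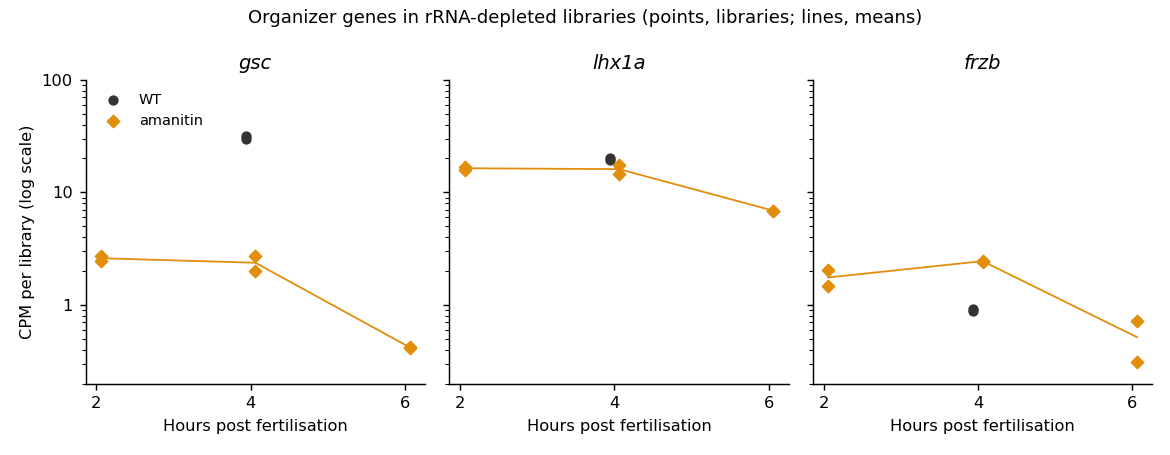
Level of gsc, lhx1a and frzb (y axis, CPM on a log scale) in each rRNA-depleted library of alpha-amanitin embryos at 2, 4 and 6 hpf and of WT at 4 hpf (x axis, hours), with 1 point per library. At 4 hpf WT lies above amanitin for gsc (29.6 and 31.6 against 2.73 and 2.02 CPM), slightly above for lhx1a and below for frzb (0.889 and 0.929 against 2.43 and 2.48 CPM).

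Other organizer genes were read beside these 3. Of 13 listed, 11 were matched to the files and 10 were tested, while foxd3 had too few counts for the test. The filter on low counts keeps a gene that is high in 1 group. For genes near 0 at first, such as dharma (0 counts in WT at 2 hpf) and noto (1 count), a later rise was largely given in advance. The counts of genes that rose in WT are therefore descriptions. In WT 9 of the 10 were higher at 4 than at 3 hpf and none lower, against 17.1% of all genes tested that were higher. Their median log2 fold change was 3.57, against 0.04 over all genes tested. chrd, which encodes the secreted Bmp antagonist Chordin, rose by a log2 of 5.21 (edgeR, adjusted p = 0.00167). It went from 1.016 and 1.503 CPM at 3 hpf to 69.7 and 23.8 CPM at 4 hpf and 204 and 225 CPM at 6 hpf. The forkhead genes foxa2 (log2 4.07, adjusted p = 0.000157) and foxa3 (4.88, adjusted p = 0.00267) rose as well, as did noto, a homeobox gene of the notochord, otx2a, a head homeobox gene, sebox, a homeobox gene downstream of Nodal, dkk1b, a secreted Wnt antagonist, and admp, a Bmp-like ligand of the dorsal side. dharma, a homeobox gene switched on by beta-catenin, rose by 1.34 (adjusted p = 0.0435), and otx2b, a second head homeobox gene, stood at 0.0359 and 0.0863 CPM at 3 hpf and 0.552 and 0.127 CPM at 4 hpf. From 4 to 6 hpf 7 of the 10 were higher and none lower, against 27.9% of all genes. That count was 4 without replicate 2 of WT at 4 hpf. With library totals as the scale it was also 4, and the calls over all genes went from 6233 higher and 7122 lower to 3612 higher and 9692 lower. The count from 3 to 4 hpf fell to 6 without replicate 1 of WT at 3 hpf or replicate 1 of WT at 4 hpf, and to 0 in a fit of those 2 groups alone, where no gene passed.

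In the rRNA-depleted libraries all 10 were higher in WT than under amanitin at 4 hpf, against 36.2% of all genes. The filter on low counts keeps a gene that is high in 1 group, and WT was the only group without amanitin. For genes near 0 under amanitin, such as foxa3 and otx2b, a higher level in WT was largely given in advance. The count of 10 is therefore a description. The median log2 fold change of the 10 genes was 6.84, or 6.33 with genes at or near 0 counts set to their lower bound, against 0.02 over all genes. noto stood at 70.2 and 71.5 CPM in WT and 0.462 and 0.613 CPM under amanitin, and foxa3 at 32.4 and 29.5 CPM and 0.0144 and 0.0273 CPM. Under amanitin 6 of the same 10 were higher at 4 than at 2 hpf and none lower, against 15.6% of all genes that were higher. Genes near 0 under amanitin could hardly be lower, so this count too is a description. In the amanitin libraries at 4 hpf foxa3 held 3 counts in all and otx2b 0, so no median fold is given for the step from 2 to 4 hpf.

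At 4 hpf 7 of the 10 were lower in ybx1 morphants than in WT, 8 of the 10 were lower in pabpc1a morphants, and none was higher in either. Over all genes 19.4% and 20.8% were lower. The median log2 fold changes were -2.06 and -2.92, against -0.06 and -0.08 over all genes. chrd stood at 2.54 and 8.48 CPM in ybx1 morphants (log2 -3.10, edgeR adjusted p = 0.0122) and at 0.513 and 3.17 CPM in pabpc1a morphants (log2 -4.65, adjusted p = 0.00194), against 69.7 and 23.8 CPM in WT. noto stood at 6.58 and 13.3 CPM (log2 -1.89, edgeR adjusted p = 0.0192) and at 1.41 and 4.75 CPM (log2 -3.57, adjusted p = 0.000727), against 54.6 and 18.9 CPM in WT. Both genes were lower in every knockdown library than in either WT library. foxa2, foxa3, otx2a and sebox were also lower in both, admp was lower in the ybx1 comparison, and otx2b and dkk1b were lower in the pabpc1a comparison. dharma was not called in either: it stood at 3.66 and 4.39 CPM in ybx1 morphants, above both WT libraries (2.55 and 2.39 CPM), and at 0.910 and 1.91 CPM in pabpc1a morphants, below both.

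These counts changed when single libraries of either side were left out. In the WT pair at 4 hpf all 10 genes were higher in replicate 1 than in replicate 2. The share of all genes higher in replicate 1 is not given, and 1531 genes were at least 2-fold apart in this pair. That all 10 were higher is therefore a description. The part of the difference between these 2 replicates in the counts was not tested. In the ybx1 comparison the count of 7 became 2 without replicate 1 of WT, where chrd and noto were no longer called, 1 without replicate 1 of ybx1 MO at 4 hpf, 5 without its replicate 2 and 1 in a fit of these groups alone. In the pabpc1a comparison the count of 8 ranged from 6 to 8 without single libraries, was 6 without replicate 1 of WT, where otx2b and dkk1b were no longer called, and was 0 in a fit of these groups alone, where no gene passed. The part of the enveloping layer, egg and zygotic marker sums given above in these counts was not tested.

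At 3 hpf 4 of the 10 were lower in ybx1 morphants and none higher, against 10.2% of all genes that were lower. dharma stood at 0.0829 and 0.0701 CPM against 0.550 and 1.41 CPM in WT (log2 -3.65, edgeR adjusted p = 0.000804). noto (log2 -5.80, adjusted p = 0.00104) and dkk1b (-3.81, adjusted p = 0.0047) were lower too. admp, with 2 counts in the morphant libraries, stood at 0 and 0.02 CPM against 0.980 and 3.11 CPM in WT. The count ranged from 2 to 4 without single libraries and was 7 in DESeq2. Over all genes the calls were 1020 higher and 2291 lower, and 1428 higher and 2032 lower with median-of-ratios scaling, so that the share of higher calls depends on the scale.

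At 6 hpf few of these organizer genes were called in either knockdown. Of the 10 genes 1 was lower in ybx1 morphants, against 15.6% of all genes, and none higher, and none passed in pabpc1a morphants in edgeR, where 0 had an unadjusted p under 0.05 and DESeq2 called 0. A fit of the ybx1 MO and WT libraries at 6 hpf alone called 3 higher and 2 lower. The gene called was foxa2, at 7.67 and 6.69 CPM in ybx1 morphants against 25.9 and 27.9 CPM in WT and 29.7 and 26.8 CPM in pabpc1a morphants (log2 -1.91, edgeR adjusted p = 0.000994). chrd was by then at 203 and 200 CPM in ybx1 morphants and 229 and 214 CPM in pabpc1a morphants, beside 204 and 225 CPM in WT. foxa3 stood at 273 and 271 CPM in ybx1 morphants against 146 and 133 CPM in WT, without overlap, and did not pass the test (adjusted p = 0.365). The median log2 difference of the list was 0.34 for ybx1 and 0.10 for pabpc1a.

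**Figure D4:**
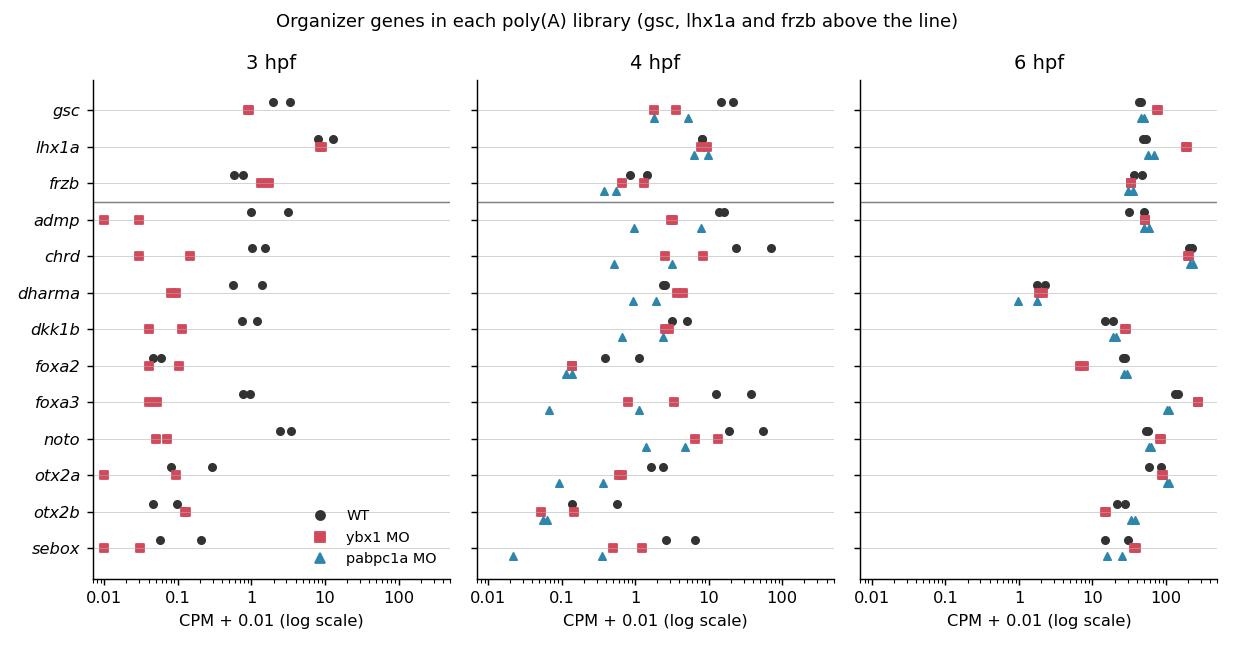
Level of gsc, lhx1a, frzb and 10 other organizer genes (1 row per gene) in each poly(A) library at 3, 4 and 6 hpf (panels; x axis, CPM plus 0.01 on a log scale), with symbols for WT, ybx1 MO and pabpc1a MO. At 4 hpf the knockdown libraries of chrd (0.513 to 8.48 CPM) lie below WT (69.7 and 23.8 CPM), and at 6 hpf the ybx1 MO libraries of foxa2 (7.67 and 6.69 CPM) lie below WT (25.9 and 27.9 CPM).

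Nodal ligands signal through a coreceptor and Smad2 to the cofactor FoxH1, and they induce mesendoderm genes at the margin. Of 16 listed genes of this pathway 9 were tested. In WT 8 rose from 3 to 4 hpf and 1 fell, against 17.1% and 10.5% of all genes. For genes near 0 at first, such as gata5 (2 counts in WT at 2 hpf), a rise was largely given in advance. The count of 8 is therefore a description. At 4 hpf 5 were lower in ybx1 morphants and 7 in pabpc1a morphants, and none was higher, against 19.4% and 20.8% of all genes that were lower. The mesendoderm homeobox gene mixl1 was lower, with log2 fold changes of -3.75 (edgeR, adjusted p = 1.25e-05) and -3.24 (adjusted p = 3.27e-05), and so was the coreceptor gene tdgf1, at -1.40 (adjusted p = 4.83e-05) and -1.37 (adjusted p = 5.34e-05). The Nodal inhibitor gene lft1 was lower, at -1.59 (adjusted p = 0.00433) and -2.65 (adjusted p = 0.000153). At 6 hpf 3 genes were higher in ybx1 morphants, against 11.9% of all genes, and none lower: foxh1 (log2 0.73, adjusted p = 0.000428), tdgf1 (0.91, adjusted p = 0.00117) and the Nodal ligand gene ndr1 (1.60, adjusted p = 0.00211). In pabpc1a morphants smad2 alone was called at 6 hpf, with a lower level (log2 -0.87, adjusted p = 0.0208), where 4.61% of all genes were lower. That call passed in 1 of the 4 fits without a library. Without replicate 1 of WT at 4 hpf the counts at 4 hpf were 3 for ybx1, where lft1 was not called, and 5 for pabpc1a, and the counts from 3 to 4 hpf in WT were 5 higher and none lower. Without the other single libraries the ybx1 count ranged from 2 to 6, the pabpc1a count from 5 to 8 and the count of genes that rose in WT from 4 to 8. A fit restricted to the 2 groups called 2 for ybx1 and none for pabpc1a, where no gene of all passed.

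Of 14 listed genes of maternal dorsal determination, which set up the beta-catenin signal, 6 were tested, and they did not move together. ctnnb2, a beta-catenin gene, was higher in ybx1 morphants at 3, 4 and 6 hpf, by a log2 of 0.85 (edgeR, adjusted p = 0.000122), 0.89 (adjusted p = 4.27e-05) and 0.93 (adjusted p = 2.54e-05). sybu, whose product Syntabulin carries dorsal determinants along microtubules, was lower in ybx1 morphants at 4 hpf (log2 -0.72, adjusted p = 0.0431) and higher in pabpc1a morphants (1.00, adjusted p = 0.00697). hwa, the maternal dorsal determinant Huluwa, was called in the pabpc1a comparison at 4 hpf (log2 0.96, adjusted p = 0.0139) and not in the ybx1 comparison (log2 -0.33, adjusted p = 0.381). In all, 1 gene was higher and 2 lower in ybx1 morphants at 4 hpf, and 3 were higher and 2 lower in pabpc1a morphants. Over all genes 12.8% were higher and 19.4% lower in ybx1 morphants, and 13.5% were higher and 20.8% lower in pabpc1a morphants. All 5 pabpc1a calls were lost without replicate 1 of WT at 4 hpf. In ybx1 morphants at 4 hpf ctnnb2 passed in each of the 4 fits without a library, sybu in 1 and tcf7l1b, the other gene called lower, in 0.

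Of 14 listed genes of the opposite, ventral side 7 were tested. At 4 hpf 4 were lower and 1 higher in ybx1 morphants, and 5 lower and 1 higher in pabpc1a morphants, beside 19.4% and 20.8% of all genes that were lower. The Bmp ligand gene bmp7a was lower, with log2 fold changes of -5.33 (edgeR, adjusted p = 0.000296) and -4.70 (adjusted p = 0.000413), and tll1, which encodes a tolloid-like protease that cleaves Chordin, was lower as well, at -3.86 (adjusted p = 0.00221) and -2.65 (adjusted p = 0.0114). Without replicate 1 of WT at 4 hpf 3 were lower and none higher for ybx1, and bmp7a alone was lower for pabpc1a, as it was without replicate 2 of pabpc1a MO. The pabpc1a call on tll1 was lost in both of these fits, with an adjusted p of up to 0.405 over its alternatives. At 6 hpf none passed for ybx1 in edgeR, where 3 had an unadjusted p under 0.05 and DESeq2 called 1, and 1, tp63, was lower in pabpc1a morphants (adjusted p = 0.0139), a call that passed in 1 of the 4 fits without a library. The difference between the ventral and the organizer list was not tested.

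Among 13 listed relatives and cofactors of the 3 genes, 7 were matched and 6 tested. In WT 4 were higher at 6 than at 4 hpf and 1 lower. Of all genes tested 27.9% were higher, and 7122 of 22377 were lower. The filter on low counts keeps a gene that is high in 1 group. For a gene near 0 before 6 hpf, as lhx1b was, a rise to 6 hpf was largely given in advance, so this count is a description. At 4 hpf 2 were lower in ybx1 morphants and 3 in pabpc1a morphants, against 19.4% and 20.8% of all genes. None was higher in either. At 6 hpf 1 was higher and 3 were lower in ybx1 morphants, against 11.9% and 15.6% of all genes. lhx1b, the paralog of lhx1a, stood at 12.4 and 10.6 CPM in ybx1 morphants at 6 hpf against 5.50 and 4.47 CPM in WT, without overlap (log2 1.20 ± 0.42, edgeR adjusted p = 0.0445). That call passed in 0 of the 4 fits without a library (adjusted p up to 0.216) and was lost with library totals as the scale. lhx1b lay below 0.2 CPM in every poly(A) library before 6 hpf. The cofactor genes ssbp3b (log2 -0.58, edgeR adjusted p = 0.00193) and ssbp4 (-0.53, adjusted p = 0.0486), which encode partners of LIM-homeodomain complexes, were lower in ybx1 morphants at 6 hpf. The ssbp4 call passed in 1 of the 4 fits without a library and was lost with median-of-ratios scaling, with library totals and in the fit restricted to these groups (adjusted p up to 0.422). sfrp5, a relative of frzb, stood at 0 and 0.0227 CPM in ybx1 morphants against 0.469 and 0.580 CPM in WT, which is 1 count in all on the morphant side.

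The 3 genes were also compared by the shape of their course. Over the 10 poly(A) group means of log2(CPM + 1), Pearson r was 0.885 between gsc and lhx1a, 0.890 between gsc and frzb and 0.920 between lhx1a and frzb. All 3 share the high 6 hpf groups, and these values are a description. Among 10303 genes with a symbol and at least 5 CPM in their highest group, the genes most like gsc were si:dkey-53f14.4 (r = 0.997), MAPK12 (0.996), ARG2, drl and TNNI2 (0.994 each). Those most like lhx1a were TTI1 (0.989), MYO5B (0.987), si:ch211-276i12.9 (0.986), DENND5A and ISY1 (0.985 each), and those most like frzb were nampt2 (0.997), cahz (0.995), ELOVL6, ZEB1 and dsc2l (0.994 each). Symbols are spelled as the name table gives them.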

How the data were processed

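Per the labels, RNA of pooled AB embryos was sequenced on a HiSeq2500 after poly(A) selection or ribosomal RNA depletion, with stranded kits for the poly(A) libraries. The authors deposited 1 file of raw read counts per gene for each library. Per the submitters' processing notes, TopHat2 2.1.1 and HTSeq 0.6.0 were used. Which genome build was used, and whether counting used strand, is not stated in the sources here, so reads of overlapping or antisense genes cannot be told apart, and no coordinates or sequences are given. The poly(A) files of WT and pabpc1a MO had no rows other than genes. Rows that name no gene were present in 14 files, the 6 of ybx1 MO and the 8 of rRNA-depleted libraries, and were left out. Of the reads counted in genes, outside genes or as ambiguous in these files, 7.22 to 18.5% lay outside genes.

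From these deposited counts, edgeR 4.0.16 (R 4.3.3; limma 3.58.1) was run with TMM scaling, its default filter (minimum count 10) and a robust quasi-likelihood test, on 20 poly(A) libraries in 10 groups (22377 genes, 10 residual degrees of freedom) and apart from them on 8 rRNA-depleted libraries in 4 groups (21525 genes, 4 degrees of freedom). The filter keeps a gene that reaches the minimum in as few as 2 libraries. Counts of listed genes that were higher in a group are therefore descriptions where those genes lay near 0 elsewhere. The 2 kits were never compared by a test. P-values were adjusted over all genes tested by Benjamini-Hochberg, with a threshold of 0.05, in 24 comparisons. CPM was computed by edgeR from the TMM-scaled library sizes. Each edgeR SE was derived, as the absolute log2 fold change divided by the square root of the test's F statistic. The code was tested on simulated data. No pair of libraries was identical or agreed within sampling noise (chi-square per degree of freedom 4.8 to 878). Alternatives were DESeq2 1.42.0, other scalings and filters, the replicate number as a block, fits restricted to the groups of a comparison, and each library left out.

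The 3 genes and the gene lists were chosen with earlier results of these data known. Of 70 symbols in the 5 gene lists 40 were matched to 1 row. Named were the 3 genes in every comparison, each tested organizer gene, at most 4 genes of lowest adjusted p per other list, the 5 genes most like each gene, and ybx1 and pabpc1a. Where a group held 3 counts or fewer, levels are given and no fold.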

Additional observations from a re-analysis of the deposited data

Results flagged for a closer look

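For 3 results the effect of a knockdown differed between 4 and 6 hpf by a test of that difference (edgeR interaction term, adjusted over all genes). They were flagged because they passed this test, so their p-values restate that choice. Of the 3 genes 2 passed for ybx1 and 1 for pabpc1a, against 26.4% and 22.8% of all genes. The difference between ybx1 morphants and WT in gsc went from a log2 of -2.75 at 4 hpf to 0.75 at 6 hpf, a change of 3.509 (adjusted p = 0.000843). For lhx1a under the same morpholino it went from 0.11 to 1.91, a change of 1.801 (adjusted p = 0.000319). For gsc in pabpc1a morphants it went from -2.35 to 0.11, a change of 2.466 (adjusted p = 0.00844). Under another processing setting this last change did not pass (edgeR, adjusted p = 0.0536). Each value is set against the WT libraries at 4 and 6 hpf, which the 2 knockdowns share, so the results are not independent of each other.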

How the results depend on the processing

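Each of the 72 values of the 3 genes (24 comparisons) was recomputed under the alternatives. Direction and side of the threshold were kept in 71 with median-of-ratios scaling, 71 with a minimum count of 50, 70 without a filter, 69 in DESeq2, 64 with library totals as scaling, 60 in a fit restricted to the groups compared, and 274 of 324 fits that left out 1 library. Library totals shifted the median log2 fold change of all genes by up to 0.74 from its value with TMM scaling, median-of-ratios scaling by up to 0.35, DESeq2 by up to 0.31 and a minimum count of 50 by up to 0.11. Not every call that moved is named below, and the causes were not tested.

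With library totals as scaling, gsc turned sign from 0 to 2 hpf in WT (0.13), lhx1a in pabpc1a morphants at 4 hpf (0.12), frzb between the morphants at 6 hpf (-0.0332) and gsc in ybx1 morphants at 4 hpf against WT at 3 hpf (-0.0735), and calls were lost for frzb from 0 to 2 hpf (-0.40), gsc from 4 to 6 hpf (0.72, adjusted p = 0.148 in edgeR) and lhx1a in WT against amanitin (0.20). From 4 to 6 hpf in WT foxh1 (-0.094), ctnnb2 (-0.23) and ssbp3b (-0.0519) turned sign, as did smad5 from 4 to 6 hpf under amanitin (-0.24). Without a filter gsc in ybx1 morphants at 3 hpf (-1.53) was no longer called, and lhx1a in pabpc1a morphants at 4 hpf was 0.0047. In a fit of only the groups compared, calls were lost for gsc from 3 to 4 hpf in WT (2.78) and, in pabpc1a morphants at 4 hpf, for gsc (-2.36) and frzb (-1.36). There gsc in ybx1 morphants at 6 hpf was called (0.76), and gsc in ybx1 morphants at 4 hpf against WT at 3 hpf was -0.0026.

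Leaving out single libraries moved the log2 fold change over a range. In WT it was -1.69 to -0.75 for frzb from 0 to 2 hpf, -0.13 to 0.76 for frzb from 2 to 3 hpf, 0.34 to 1.14 for frzb and -0.67 to -0.00702 for lhx1a from 3 to 4 hpf, and 1.07 to 1.59 for gsc from 4 to 6 hpf. In ybx1 morphants against WT it was 1.02 to 1.44 for frzb, -1.87 to -1.09 for gsc and -0.51 to 0.15 for lhx1a at 3 hpf, and -0.79 to 0.24 for frzb and -0.0379 to 0.24 for lhx1a at 4 hpf. In pabpc1a morphants at 4 hpf it was -1.68 to -0.88 for frzb and -0.34 to 0.27 for lhx1a. Between the morphants it was -0.97 to 0.58 for gsc and -0.16 to 0.45 for lhx1a at 4 hpf, and -0.0869 to 0.14 for frzb at 6 hpf. Against WT of the hour before it was -0.38 to 0.0683 for gsc in ybx1 morphants at 3 hpf, -0.53 to 0.45 for gsc and -0.56 to 0.10 for lhx1a in ybx1 morphants at 4 hpf, and -0.57 to 0.98 for gsc in pabpc1a morphants at 4 hpf. From 3 to 4 hpf in ybx1 morphants lhx1a ranged from -0.19 to 0.0904, and the change of the knockdown difference from -0.0351 to 0.62 for lhx1a between 3 and 4 hpf and from -0.56 to 0.45 for frzb between 4 and 6 hpf. In the rRNA-depleted libraries lhx1a in WT against amanitin ranged from 0.16 to 0.43, and from 2 to 4 hpf under amanitin gsc ranged from -0.37 to 0.0703 and lhx1a from -0.17 to 0.10.

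The count of genes called moved by over 1.5 times in some comparisons. From 2 to 3 hpf in WT 1026 genes became 601 with library totals, 2029 in DESeq2 and 4562 in the restricted fit. In that last fit the count went from 6161 to 0 from 3 to 4 hpf in WT, from 3311 to 7251 and 7207 to 1009 for ybx1 morphants at 3 and 4 hpf, and from 7683 to 0 and 2050 to 779 for pabpc1a morphants at 4 and 6 hpf. Leaving out replicate 1 of WT at 4 hpf gave 4020 genes for ybx1 and 4765 for pabpc1a at 4 hpf.

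The morphant and WT groups share replicate numbers. Over 45 pairs of poly(A) groups the correlation of same-numbered deviations was -0.14 to 0.31, and 6 pairs were over 0.1. Such correlations cannot settle whether the numbers pair the libraries. The highest was between WT at 3 hpf and pabpc1a MO at 4 hpf. A fit with the replicate number as a block kept 71 of the 72 values and called the rise of gsc from 3 to 4 hpf in ybx1 morphants (adjusted p = 0.0425 in edgeR). Low counts limit frzb before 6 hpf.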
